A study of Mus musculus with 8 samples.

Results

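The Nogo receptor complex was followed through bulk RNA-seq of mouse hippocampal neurons treated with melanin-concentrating hormone (MCH), as 7 genes of the 45706 in the gene table. They are the receptor gene *Rtn4r*, its paralogs *Rtn4rl1* and *Rtn4rl2*, the co-receptor gene *Lingo1* and its paralog *Lingo2*, and the ligand genes *Rtn4* and *Omg*. The genes were listed by name, and *Rtn4r* was picked on this contrast because it was higher after MCH, so its values are given as a description with no test. All 7 passed the filter on low counts, as did 14962 genes of the table. Neurons were cultured from C57/Bl6 wild type embryos at embryonic day 18, and at 12–14 days in vitro they received 1 µM MCH peptide or the H2O vehicle for 4 h. An Alzheimer's disease model tag stands beside the wild type genotype in the labels. There were 4 vehicle and 4 MCH wells from 2 independent cultures, each culture giving 2 wells to either treatment, and the culture of each well is not given in the sources used here. *P* values therefore measure the spread between wells of few cultures.

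The Nogo receptor is a leucine-rich repeat protein held on the neuronal surface by a GPI anchor. It binds inhibitors that are best known from myelin, namely Nogo-A (from *Rtn4*), oligodendrocyte myelin glycoprotein (from *Omg*) and myelin-associated glycoprotein (from *Mag*). Having no cytoplasmic part, it signals with LINGO1 and a TNF receptor family member (from *Ngfr* or *Tnfrsf19*) to kinases that act on the cytoskeleton, which restrains axon growth and, in the hippocampus, the making of synapses and spines. *Rtn4r* mRNA in hippocampal neurons is known to be lowered by neuronal activity.

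*Rtn4r* and *Rtn4* carry most of what follows, so the RefSeq promoter windows around their start sites on GRCm38.p6 are printed, from 250 bases before to 50 bases after each start, 5′ to 3′, with every CG dinucleotide in capitals. *Rtn4r* has 1 annotated transcript and 1 window, at chr16:18127392-18127691 on the plus strand. *Rtn4* has 3 windows on the plus strand, of which the first and the second lie at the starts of the long transcripts and the third at the start of the short one. RefSeq windows were also matched for *Rtn4rl2*, *Lingo1* and *Lingo2*, which makes 5 of the 7 genes, and *Rtn4rl1* and *Omg* were not matched.
Rtn4r, chr16:18127392-18127691: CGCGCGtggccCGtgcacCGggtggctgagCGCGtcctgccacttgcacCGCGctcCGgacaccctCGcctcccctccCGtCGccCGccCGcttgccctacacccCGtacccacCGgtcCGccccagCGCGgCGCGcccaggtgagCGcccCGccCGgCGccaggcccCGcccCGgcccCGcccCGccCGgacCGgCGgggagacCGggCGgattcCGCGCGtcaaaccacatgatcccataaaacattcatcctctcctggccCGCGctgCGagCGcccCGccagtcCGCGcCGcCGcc
Rtn4, chr11:29692648-29692947: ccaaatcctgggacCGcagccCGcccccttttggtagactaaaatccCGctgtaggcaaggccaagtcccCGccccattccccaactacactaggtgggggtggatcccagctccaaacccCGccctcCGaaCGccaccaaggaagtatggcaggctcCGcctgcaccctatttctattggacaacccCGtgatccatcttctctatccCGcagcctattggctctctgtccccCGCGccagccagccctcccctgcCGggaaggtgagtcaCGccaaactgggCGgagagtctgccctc
Rtn4, chr11:29693524-29693823: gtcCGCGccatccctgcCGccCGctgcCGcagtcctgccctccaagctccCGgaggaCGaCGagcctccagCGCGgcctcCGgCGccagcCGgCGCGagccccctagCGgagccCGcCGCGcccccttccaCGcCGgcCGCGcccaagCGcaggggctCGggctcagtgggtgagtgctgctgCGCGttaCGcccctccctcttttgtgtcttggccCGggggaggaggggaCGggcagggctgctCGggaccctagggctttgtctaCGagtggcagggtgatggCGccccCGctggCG
Rtn4, chr11:29718313-29718612: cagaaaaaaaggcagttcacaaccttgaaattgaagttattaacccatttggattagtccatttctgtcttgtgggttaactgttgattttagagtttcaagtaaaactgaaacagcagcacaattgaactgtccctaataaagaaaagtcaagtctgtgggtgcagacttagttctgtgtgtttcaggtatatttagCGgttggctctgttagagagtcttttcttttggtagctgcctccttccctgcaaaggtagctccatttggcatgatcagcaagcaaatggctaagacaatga

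The *Rtn4r* window held 47 CG dinucleotides at 78.0% GC, against medians of 7 and 52.7% over 32851 mouse promoter windows of the same length. The first and the second *Rtn4* windows held 15 and 35 CG at 62.3% and 75.3% GC, whereas the third held 1 at 39.7% GC. Both strands were searched for short motifs. The *Rtn4r* window held the core of the cyclic AMP response element, TGACG, once, 30 bases before the start (present in 20.8% of all windows), and the E-box, CANNTG, at 3 places (present in 72.3%). The first *Rtn4* window held the AP-1 letters TGANTCA once, 16 bases after the start (present in 7.81% of all windows), and the third held 4 E-boxes. None of the 4 printed windows held the complete element TGACGTCA, the early growth response letters GCGTGGGCG, a CArG box or TATAAA, which were present in 1.79%, 0.612%, 1.63% and 13.6% of all windows. A match describes the letters only.

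Each well held 26083936–31844861 estimated counts. After the treatment means were removed, the first principal component held 59.8% of the variance and split the wells of either treatment into replicates 1–2 and replicates 3–4. These sides were read from the counts and are not named in the labels. The 6 neuron markers were detected at a summed 3966–4331 TPM (a level scaled for transcript length and depth). In replicates 1–2 they summed to 4175–4282 TPM with vehicle and 4319–4331 TPM with MCH, which do not overlap. In replicates 3–4 they were lower, at 3966–4023 TPM with vehicle and 4001–4004 TPM with MCH, which overlap. These neuron differences were not tested. The astrocyte list (*Gfap*, *Aqp4*, *Slc1a3*, *Aldh1l1*, *Aldoc* and *Gja1*) differed between the sides and, within each side, between treatments. In replicates 1–2 it summed to 268–303 TPM with vehicle and 220–255 TPM with MCH, and in replicates 3–4 to 1000–1054 TPM with vehicle and 1105–1188 TPM with MCH. The treatments thus did not overlap on either side, with MCH lower on the first and higher on the second. Each side holds only 2 wells per treatment, and this difference within sides was not tested. The edgeR fit without a block, which has no term for this gap between sides, called 0 of the 6 genes between treatments, against 0.234% of all genes tested. The part of astrocytes in the results below was not tested. Of the oligodendrocyte lineage markers, *Mog* and *Sox10* were at 0 counts in every well, and the highest levels of *Mobp* and *Opalin* were 0.0955 and 0.0747 TPM. In bulk RNA, fewer cells of a type and less RNA per cell cannot be told apart.

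*Rtn4r*, the receptor for all the inhibitors named above, was higher in every MCH well than in any vehicle well. *Rtn4r* (ENSMUSG00000043811, chr16:18127642-18152408 on the plus strand of GRCm38, with 2 exons and 1419 coding bases) was at 60.8, 63.4, 59.5 and 60.8 CPM (counts scaled to a common library size) in vehicle replicates 1 to 4. In MCH replicates 1 to 4 it was at 74.5, 79.2, 72.0 and 72.0 CPM. The lowest MCH well thus lay above the highest vehicle well. The means were 61.1 ± 1.65 and 74.4 ± 3.40 CPM (SD, n = 4 wells each), and the fitted log2 fold change was 0.28 (standard error 0.04), or 1.22-fold. On the length-scaled measure *Rtn4r* was at 61.1 ± 1.11 TPM with vehicle and 75.5 ± 3.25 TPM with MCH. The wells rested on 1571–2333 counts of the gene. Among all genes tested, 3.07% likewise had every MCH well above every vehicle well, a share from which nothing is read for *Rtn4r*, since this contrast chose it.

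The *Rtn4r* difference was of much the same size in each pair of wells that share a replicate number. *Rtn4r* was picked on these same wells, so this likeness and the spread given below are a description from which nothing is read. The counts also do not show which wells within a side belong together. The log2 differences were 0.29, 0.32, 0.28 and 0.24 for replicates 1 to 4, and the side values were 0.31 (replicates 1–2) and 0.26 (replicates 3–4). The astrocyte sum was lower with MCH on the first side and higher on the second, and its part in the *Rtn4r* values was not tested. Within treatments *Rtn4r* differed little between the sides, being lower in replicates 3 and 4 by 0.05 with vehicle and 0.09 with MCH on the log2 scale. The pooled SD of its log2 CPM within treatments was 0.0534, below the median of 0.0836 over the 9564 genes with a mean of at least 10 CPM.

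**Figure D1:**
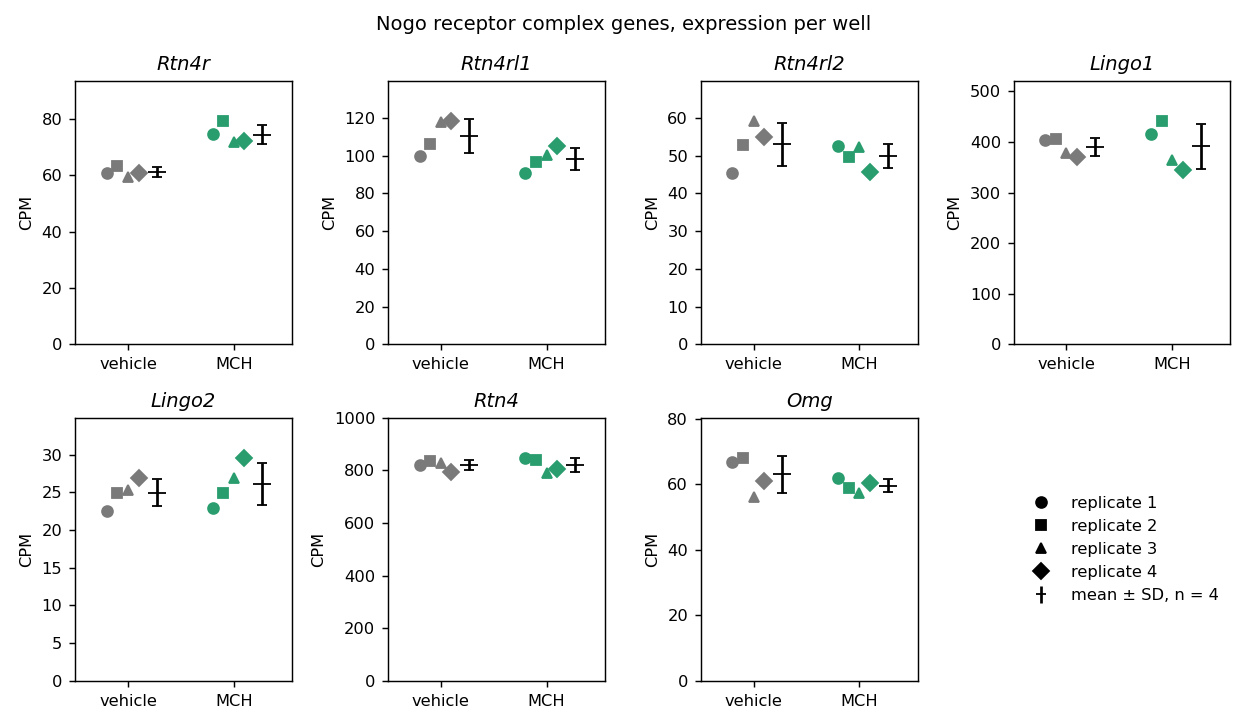
Expression in CPM of the 7 genes in each well, from 0, with vehicle wells in gray and MCH wells in green, replicate numbers by symbol, and the mean ± SD of 4 wells as a black bar. The *Rtn4r* wells separate by treatment, at 59.5–63.4 and 72.0–79.2 CPM, and the wells of the other 6 genes overlap.

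*Rtn4rl1*, a paralog that binds chondroitin sulphate proteoglycans, lay lower with MCH in each replicate number but was called only in fits with a block. *Rtn4rl1* (ENSMUSG00000045287, chr11:75193783-75267769, plus strand) was at 99.8, 106, 118 and 118 CPM in vehicle replicates 1 to 4 and at 91.0, 96.5, 100.3 and 105 CPM in MCH replicates 1 to 4. The treatments overlapped, since the highest MCH wells exceeded the lowest vehicle well, yet within every replicate number the MCH well was the lower one. The means were 111 ± 9.10 and 98.3 ± 6.08 CPM (SD, n = 4 wells each). The log2 fold change was −0.17 (standard error 0.07, 95% interval −0.32 to −0.02), and the gene was not called (edgeR quasi-likelihood test, Benjamini–Hochberg adjusted *P* = 0.505, unadjusted *P* = 0.0277).

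The call of *Rtn4rl1* depended on the side of the wells. *Rtn4rl1* was higher in replicates 3 and 4 than in replicates 1 and 2, by 0.20 with vehicle and 0.13 with MCH on the log2 scale, the same direction as the astrocyte list, whose part in the level was not tested. Within the sides, the treatments differed by −0.14 (replicates 1–2) and −0.20 (replicates 3–4) in log2, and by replicate number it was −0.13, −0.14, −0.23 and −0.17. With the replicate number as a block, edgeR called *Rtn4rl1* lower after MCH (log2 fold change −0.17 with standard error 0.03, adjusted *P* = 0.00649), and with the side as a block the fold change and its error were the same to 2 decimals (adjusted *P* = 0.00561). These fits called 3.98% and 4.46% of all genes tested, against 0.234% without a block.

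*Rtn4rl2*, the other paralog, was at 53.1 ± 5.70 CPM with vehicle and 49.98 ± 3.20 CPM with MCH (log2 fold change −0.09 with standard error 0.08, edgeR adjusted *P* = 0.861). *Rtn4rl2* (ENSMUSG00000050896) lies at chr2:84871924-84886710 on the minus strand. Its vehicle wells were at 45.5, 52.8, 59.2 and 54.9 CPM and its MCH wells at 52.5, 49.6, 52.2 and 45.6 CPM, so the treatments overlapped. The pair differences ran from −0.27 in replicate 4 to 0.21 in replicate 1. No block changed this call.

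The co-receptor gene *Lingo1*, whose product signals together with the Nogo receptor, had means that differed by less than the spread between wells. *Lingo1* (ENSMUSG00000049556, chr9:56618475-56796468, minus strand) was at 404, 405, 378 and 370 CPM with vehicle and at 417, 441, 364 and 345 CPM with MCH. Means were 389 ± 17.9 and 392 ± 44.7 CPM, with a log2 fold change of 0.01 (95% interval −0.16 to 0.18, edgeR adjusted *P* = 1.000). In both treatments the wells of replicates 1 and 2 were the higher ones. The MCH well was above the vehicle well by 0.04 and 0.12 in replicates 1 and 2 and below it by 0.06 and 0.10 in replicates 3 and 4 (log2), a difference between sides that was not tested.

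*Lingo2*, a paralog of *Lingo1* expressed in neurons, was not called. Vehicle wells averaged 24.9 ± 1.79 CPM and MCH wells 26.1 ± 2.83 CPM, for a log2 fold change of 0.07 with a standard error of 0.08 (edgeR adjusted *P* = 0.931). *Lingo2* (ENSMUSG00000045083) extends over chr4:35706647-36951747 on the minus strand. Its vehicle wells spanned 22.5–26.9 CPM and its MCH wells 23.0–29.6 CPM, which overlap.

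The ligand gene *Rtn4*, whose longest products are the Nogo-A forms, varied least between wells among the 7 genes. *Rtn4* (ENSMUSG00000020458, chr11:29692947-29744331, plus strand) was at 819, 837, 830 and 795 CPM with vehicle and at 848, 839, 789 and 807 CPM with MCH. The treatments overlapped, with means of 820.3 ± 18.2 and 821 ± 27.5 CPM. The log2 fold change was 0.00 with a 95% interval of −0.08 to 0.08 (edgeR adjusted *P* = 1.000). Its pooled SD within treatments was 0.0412 on the log2 scale, against 0.0534–0.133 for the other 6 genes. The last bases of *Rtn4* overlap *Eml6* on the opposite strand. The kit marks strand, but the strand setting of the quantification is not given in the sources used here.

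*Omg*, the gene of the GPI-anchored oligodendrocyte myelin glycoprotein, which neurons also make, was at 67.0, 68.1, 56.1 and 61.1 CPM with vehicle and at 61.9, 59.0, 57.2 and 60.3 CPM with MCH. *Omg* (ENSMUSG00000049612, chr11:79500982-79504084, minus strand) lies within *Nf1*, which is read from the opposite strand. The MCH wells lay within the range of the vehicle wells. Means were 63.1 ± 5.58 and 59.6 ± 1.99 CPM, with a log2 fold change of −0.08 (standard error 0.06, edgeR adjusted *P* = 0.818). The pair differences were −0.11 and −0.21 in replicates 1 and 2 but 0.03 and −0.02 in replicates 3 and 4.

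Of the 6 genes other than *Rtn4r*, 0 were called by edgeR without a block, against 0.234% of all genes tested. In that fit 1 had an unadjusted *P* under 0.05 (*Rtn4rl1*), against 1272 of the 14962 genes tested. DESeq2 and limma voom without a block called 0 of the 6, against 170 and 28 of the 14962. Their log2 fold changes ran from −0.17 to 0.07 with a median of −0.04, beside a median of 0.00 over all genes. Between the wells, 6.03% of all genes tested did not overlap in either direction, and 0 of these 6 did so.

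**Figure D2:**
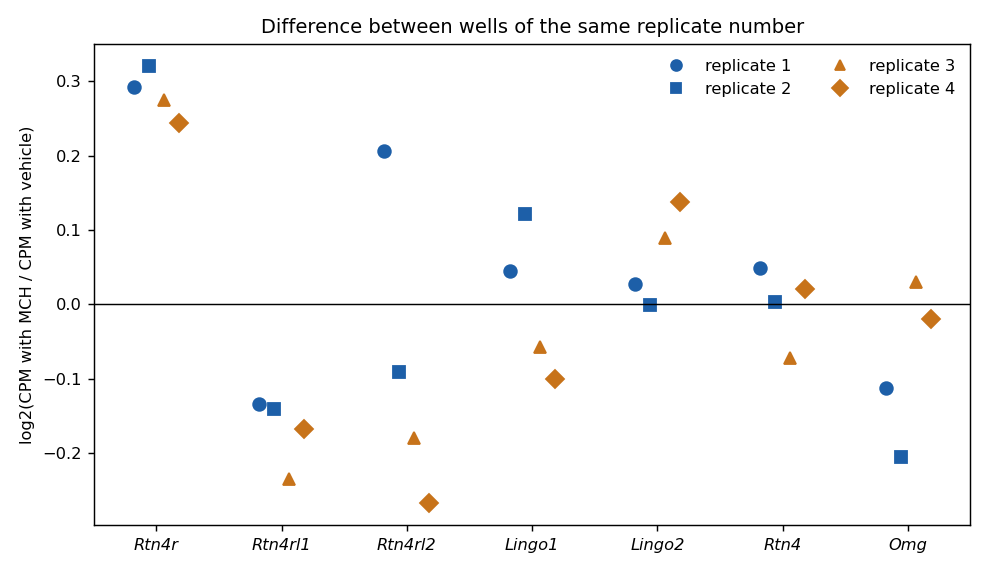
Difference in log2 CPM between the MCH and the vehicle well of the same replicate number for each of the 7 genes, with replicates 1 and 2 in blue and replicates 3 and 4 in orange. All 4 points lie above 0 for *Rtn4r* (0.24–0.32) and below 0 for *Rtn4rl1* (−0.23 to −0.13), and *Lingo1* has 2 points on each side of 0.

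Per length, *Rtn4* and *Lingo1* were the most abundant, and the receptor genes, *Omg* and *Lingo2* lay below them. Over the 8 wells *Rtn4* was at 332–359 TPM (mean 345) and *Lingo1* at 237–304 TPM (mean 266), ranges that do not overlap. *Rtn4rl2* followed at 127–152 TPM (mean 139) and *Rtn4r* at 60.1–80.1 TPM (mean 68.3). *Rtn4rl1* and *Omg* shared their range, at 47.6–61.4 TPM (mean 54.2) and 48.3–57.4 TPM (mean 52.7), and the *Rtn4rl1* wells also reached into the range of *Rtn4r*. *Lingo2* was lowest at 17.2–26.3 TPM (mean 22.0). These levels are a description, with no test between genes.

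The place of *Rtn4rl2* in that order depended on how length was counted. Its non-coding transcript *Rtn4rl2-202*, of 550 bases, held 56.2% of the gene's TPM but 26.9% of its estimated counts, and the coding transcript *Rtn4rl2-203* held 43.8% of TPM. As CPM per kilobase of annotated exon, *Rtn4rl2* was at 34.2 and *Rtn4r* at 35.0, with overlapping wells. On that measure *Rtn4* (117) and *Lingo1* (99.5) remained first, and *Lingo2* (3.07) last.

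The balance between the receptor paralogs was not the same in vehicle and in MCH wells. In vehicle wells the TPM of *Rtn4rl1* averaged 93.4% of that of *Rtn4r* in the same well. The wells of both genes overlapped, at 51.3–61.4 and 60.1–62.6 TPM. In MCH wells this average was 68.2%, and every well of *Rtn4r* (73.1–80.1 TPM) was above every well of *Rtn4rl1* (47.6–55.3 TPM). Because *Rtn4r* was picked on its difference, this ratio is a description.

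**Figure D3:**
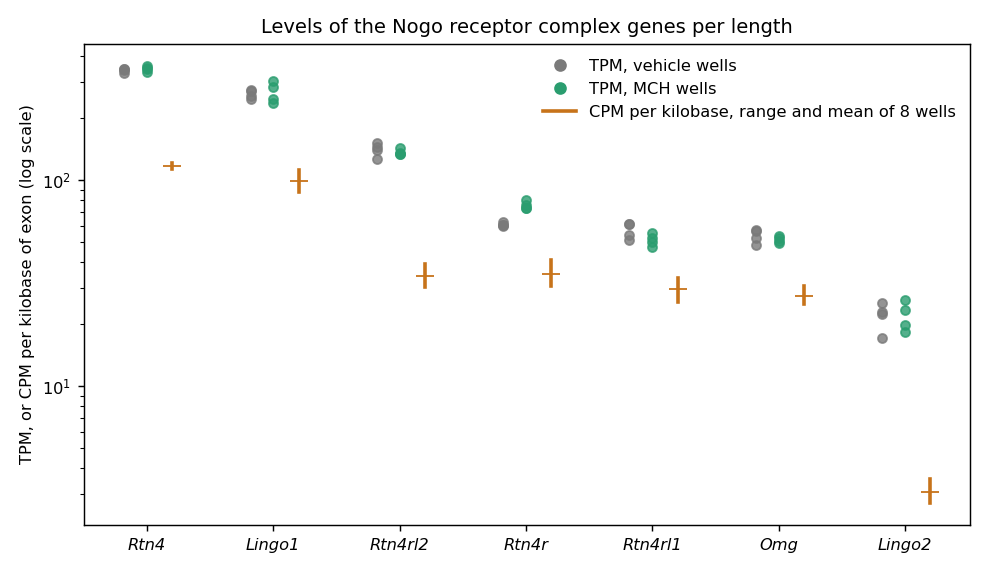
Level of each gene per length on a log axis, in TPM for each vehicle well (gray) and MCH well (green), and in CPM per kilobase of exon as the mean and range of 8 wells (orange). *Rtn4* and *Lingo1* are highest on both measures, whereas *Rtn4rl2* is above *Rtn4r* in TPM only.

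Nogo-A-length messages made up nearly all of *Rtn4*. The long coding transcripts were *Rtn4-205*, with 3486 coding bases, at 54.9% of the gene's TPM over the 8 wells, and *Rtn4-203*, with 3138 coding bases, at 42.4%. Their first bases, at positions 29692947 and 29693774 of chromosome 11, lie in or at the first and the second *Rtn4* window printed above. Both together held 96.7–98.0% of TPM in every well, at 97.4 ± 0.635% with vehicle and 97.2 ± 0.289% with MCH (SD, n = 4 wells each). The 3 transcripts of middle coding length, the class of the Nogo-B form, held 1.62–2.66%. *Rtn4-201*, which starts at position 29718563 in the third window and has 597 coding bases, the class of the short Nogo-C form, held 0.127–0.737%, or 0.439–2.65 TPM.

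In the other genes too, no transcript share was found to differ between treatments. *Lingo1-202*, *Lingo1-201* and *Lingo1-203* held 45.0%, 36.5% and 18.5% of the gene's TPM. *Lingo2* was spread over 5 transcripts, the highest being *Lingo2-203* at 25.8%, and its non-coding *Lingo2-206*, of 368 bases, held 24.4% of TPM but 1.48% of counts. *Rtn4r*, *Rtn4rl1* and *Omg* have 1 annotated transcript each. Of the 12 shares tested, with a two-sided exact permutation test over 70 assignments of treatments to wells, 0 had a *P* under 0.05, and the lowest was 0.257 (adjusted *P* = 1), where the design allows 0.0286. The largest difference in mean share was that of *Lingo2-206*, at 26.4 ± 6.40% with vehicle and 22.4 ± 4.22% with MCH (exact *P* = 0.371). The edgeR test of estimated counts per transcript called 0 of the 17 tested transcripts of the 6 genes and 0% of all 33527 transcripts tested, of which 1 and 1476 had an unadjusted *P* under 0.05, and limma voom also called 0.

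**Figure D4:**
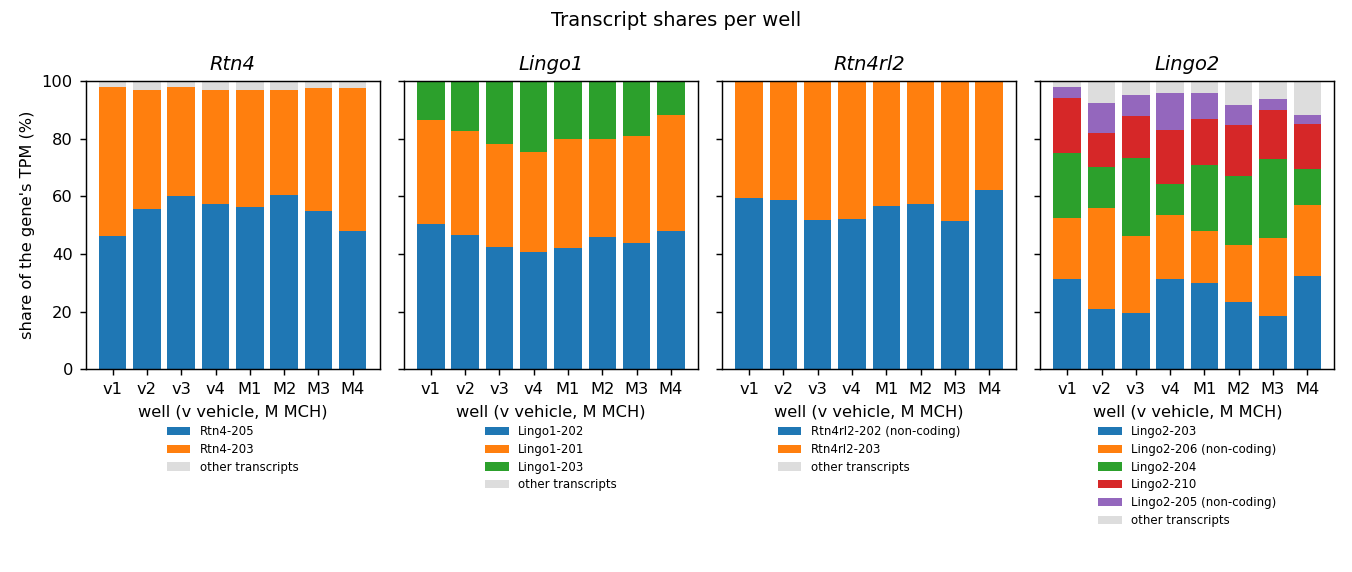
Share of each gene's TPM held by its transcripts with a mean share of at least 5%, for the 4 vehicle wells (v1 to v4) and the 4 MCH wells (M1 to M4), with all other transcripts in light gray. *Rtn4-205* and *Rtn4-203* fill 96.7–98.0% of the *Rtn4* bars in every well.

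The rest of the pathway was described through 33 other genes, of which 30 passed the filter. The edgeR fit without a block called 0 of the 30, against 0.234% of all genes tested. DESeq2 and limma voom also called 0 of them, against 170 and 28 of the 14962 genes. In the edgeR fit 2 of the 30 had an unadjusted *P* under 0.05 (*Lingo3* and *Crtac1*), against 1272 of the 14962. Of the 30 log2 fold changes, 12 were above and 18 below 0, with a median of −0.02. Over all genes tested 7325 were above and 7637 below 0. The wells of 0 of the 30 separated by treatment, against 6.03% of all genes tested. *Pirb*, a further receptor for the same ligands, and the ligand genes *Mag* and *Tnfsf13b* did not pass the filter, with 19, 4 and 10 counts over all wells. The message of the myelin ligand MAG was thus close to absent at this depth, as were the oligodendrocyte markers *Mog*, *Mobp* and *Opalin*.

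Among the co-receptors, *Tnfrsf19* (TROY) was at a mean of 21.2 TPM and *Ngfr* (the neurotrophin receptor) at 1.25 TPM. *Ngfr* was at 2.69 ± 0.667 CPM with vehicle and 1.99 ± 0.700 CPM with MCH, on 42–104 counts per well, with a log2 fold change of −0.43 and a standard error of 0.27 (edgeR adjusted *P* = 0.752). *Tnfrsf19* was at 41.2, 38.2, 56.4 and 49.3 CPM with vehicle and at 43.6, 46.6, 60.6 and 58.4 CPM with MCH. The astrocyte-rich replicates 3 and 4 were the higher ones in both treatments, by 0.41 and 0.40 on the log2 scale, and the part of astrocytes in the level was not tested. *Lingo3*, a further paralog, was at 26.5 ± 2.12 CPM with vehicle and 22.9 ± 1.51 CPM with MCH (log2 fold change −0.21, standard error 0.07, edgeR adjusted *P* = 0.429).

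Of the other ligands and the antagonist, *Crtac1*, which encodes the Nogo receptor antagonist LOTUS, was at 284, 280, 253 and 262 CPM with vehicle and 255, 248, 247 and 240 CPM with MCH. The MCH well was lower in each replicate number, whereas the wells overlapped. Its log2 fold change was −0.12 (standard error 0.04, edgeR adjusted *P* = 0.466). *Olfm1*, another secreted antagonist of the receptor complex and the highest of this group at 605 TPM, had a log2 fold change of 0.02, and *Lgi1*, a secreted ligand in epilepsy-linked complexes, had one of −0.04 at 142 TPM (edgeR adjusted *P* = 0.986 and 0.915). *Tspan3*, encoding a tetraspanin and the highest of the other receptors at 346 TPM, had one of −0.05 (adjusted *P* = 0.857).

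The proteoglycan, downstream signalling and reticulon genes were not called either. *Ptprs*, a proteoglycan receptor at 218 TPM, had a log2 fold change of 0.03, and *Acan*, the proteoglycan of perineuronal nets, had one of −0.30 (standard error 0.14, edgeR adjusted *P* = 0.611). *Rock2*, encoding a kinase that acts on the cytoskeleton, was at 234 ± 17.7 and 207 ± 21.7 CPM (log2 fold change −0.18, adjusted *P* = 0.596), and *Cfl1*, the actin-severing cofilin and the highest of the downstream group at 1394 TPM, had a log2 fold change of −0.07 (adjusted *P* = 0.661). *Rtn1*, the most abundant other reticulon at 2139 TPM, had one of −0.01 (adjusted *P* = 1.000).

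With a block, 5 of the 30 pathway genes were called, as against 4.46% of all genes tested for the side block and 3.98% for the replicate block. The list was chosen with earlier results of these data known, and the sides were read from the same counts. The count is therefore a description, from which nothing is read for the list. *Tnfrsf19* was higher after MCH (log2 fold change 0.18, edgeR adjusted *P* = 0.0332 with the side block and 0.0326 with the replicate block). The other 4 were lower. *Lingo3* was called at adjusted *P* values of 0.0316 and 0.0498, *Crtac1* at 0.0148 and 0.0289, *Acan* at 5.74e-04 and 0.00163, and *Rock2* at 0.00465 and 0.00416, with the side and the replicate block respectively. Among the list groups these are co-receptors in both directions, an antagonist, a proteoglycan and a kinase.

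**Figure D5:**
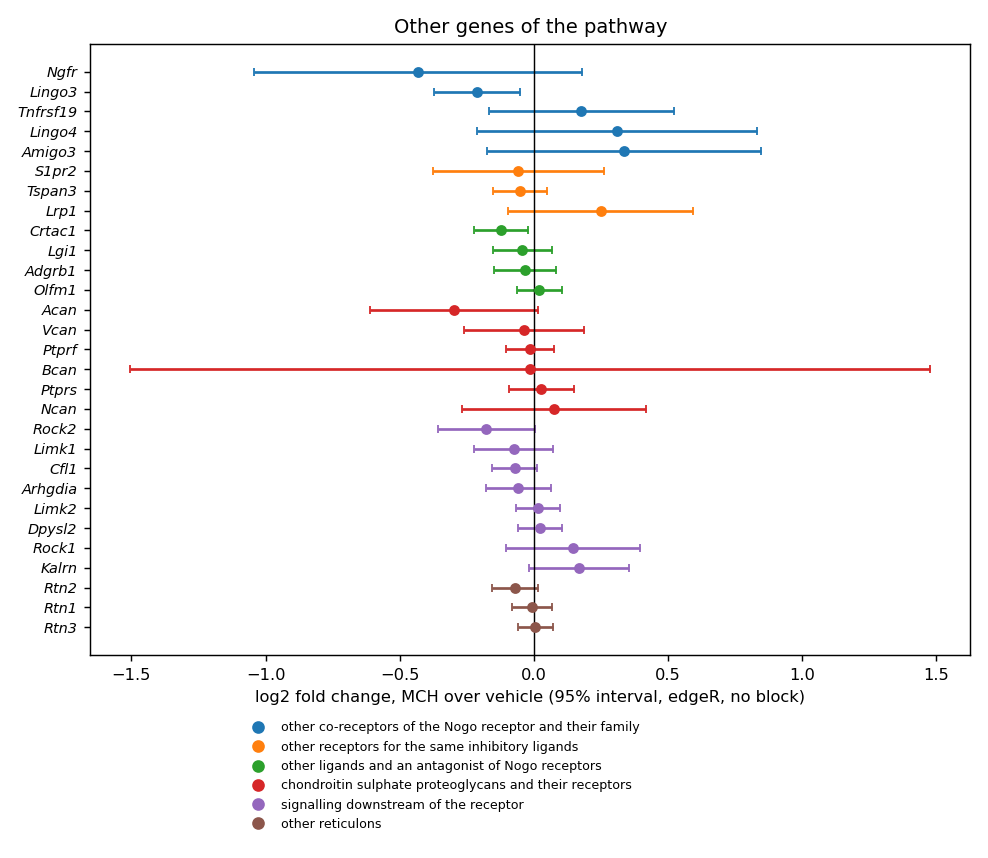
Log2 fold change of MCH over vehicle with its 95% interval in the edgeR fit without a block, for 29 of the 30 tested genes of the pathway other than the 7, colored by role. The points run from −0.43 (*Ngfr*) to 0.34 (*Amigo3*), and 2 intervals, those of *Lingo3* and *Crtac1*, leave out 0.

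The genes whose log2 CPM followed *Rtn4r* most closely over the 8 wells, among 13398 genes compared, were *Ccdc166*, *Bhlhe22*, *Farp2*, *Stard7* and *Morc2a*. Pearson's *r* was 0.98, 0.97, 0.97, 0.96 and 0.96. The points share libraries and the treatment, and *Rtn4r* was picked on that treatment, so the values are descriptive. *Bhlhe22*, encoding a neuronal basic helix-loop-helix factor, was at 69.1 ± 1.35 CPM with vehicle and 81.4 ± 3.70 CPM with MCH. *Ccdc166* was at 8.28 ± 0.444 and 10.1 ± 0.569 CPM, and *Farp2*, encoding a guanine nucleotide exchange factor, at 8.11 ± 0.133 and 9.19 ± 0.137 CPM. *Stard7*, a phosphatidylcholine transfer protein gene, was at 193 ± 3.22 and 204 ± 1.63 CPM, and *Morc2a*, encoding a chromatin ATPase, at 68.8 ± 0.609 and 74.4 ± 2.04 CPM. Among the 7 genes themselves, *Rtn4r* had *r* = −0.75 with *Rtn4rl1* and between −0.35 and 0.27 with the others over the 8 wells.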

How the data were processed

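Poly-A RNA of 8 wells was sequenced as stranded libraries. The authors ran nf-core/rnaseq with salmon (GRCm38). The tables they deposited hold estimated counts by gene and by transcript, unscaled for depth. The deposited TPM are scaled by the authors' salmon run for length and depth. Submitters' processing notes name Salmon, R 4.0.3 and DESeq2 1.13.0. Identifiers were named with GENCODE vM21, which matched 98.8% of genes and 98.7% of transcripts.

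Treatment and replicate number came from the labels. Estimated counts were rounded and tested with edgeR 4.0.16 in R 4.3.3 (TMM, filterByExpr with a count minimum of 10 and a total minimum of 15, robust quasi-likelihood *F* test, Benjamini–Hochberg adjustment over 14962 genes or 33527 transcripts, threshold 0.05). DESeq2 1.42.0, limma 3.58.1, other scalings, filters, blocks and each well left out were alternatives. CPM use TMM factors. The scripts were tested on simulated data. Totals were 26083936–31844861 counts per well, and the spread between wells and sides also limits the precision of each value.

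Genes are named by a rule: the 7 genes, pathway genes called with or without the side block, the highest TPM per role, *Mag*, *Ngfr*, *Tnfrsf19*, *Lingo3*, *Lgi1*, *Pirb* and *Crtac1*, transcripts with a mean share of at least 5%, and the 5 genes most correlated with *Rtn4r* (mean of at least 1 CPM). The other transcripts of *Rtn4*, and *Tnfsf13b* and *Amigo3*, were named after their values were seen. The members and lists were chosen with earlier results of these data known. The side block was also read from these counts. One item of the pathway is counted but not reported here.

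Deviations of log2 CPM from treatment means correlated at 0.445–0.545 for wells of the same number, 0.475–0.521 for other numbers on one side and −0.548 to −0.438 across sides. As each same-number pair exceeded 0.1, the numbers were taken to pair the wells, a pairing read from the counts. Wells of other numbers on one side correlated over much the same range. The counts thus separate the sides and do not show which wells within a side belong together.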

Additional observations from a re-analysis of the deposited data

Results flagged for a closer look

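Of 38 sets of 4 wells examined (the CPM of the 7 genes and the 12 transcript shares, by treatment), 2 had a well far from the others, and chance gives about 1 in 20. The share of *Lingo1-201* in vehicle replicate 4 was 34.9% of the gene's TPM, against 36.0–36.1% in the other vehicle wells. The share of *Lingo1-203* in MCH replicate 4 was 11.7%, against 19.1–20.2% in the other MCH wells.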

How the results depend on the processing

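The log2 fold change of *Rtn4r* stayed between 0.26 and 0.31 in all 15 alternatives. These use the wells on which *Rtn4r* was picked, so the range is a description. With the replicate block and with the side block, 1 of the 6 other genes (*Rtn4rl1*, log2 fold change −0.17 in both fits) and 5 of the 30 pathway genes were called, where the fit without a block called 0. The replicate block treats wells of the same number as pairs, which the counts do not show beyond the sides. Neither block changed any other call among these genes. Leaving out each well in turn, in the fit without a block, called 0 members and 0 pathway genes. Those fits do not bear on the calls made with a block. In any alternative, 0 transcripts or shares were called, though the exact sign-flip permutation test of 4 pairs cannot go below *P* = 0.125. Over all genes, calls numbered 35, against 170 with DESeq2, 596 with the replicate block, 668 with the side block, 7 with transcript length as an offset, and 4 to 29 with wells left out (4 without vehicle replicate 4, 5 without vehicle replicate 1, 9 without vehicle replicate 2, and 12, 10 and 7 without MCH replicates 2, 3 and 4). The cause was not tested. The near-zero log2 fold changes changed sign: *Lingo2* was at −0.014 with the length offset, *Lingo1* ran from −0.049 to 0.071 with wells left out (negative without vehicle replicate 4, MCH replicate 1 and MCH replicate 2), and *Rtn4* from −0.012 to 0.027 (negative without the same wells). As CPM per kilobase of exon in vehicle wells, *Rtn4rl2*, *Lingo1*, *Lingo2* and *Rtn4* stood at 112%, 315%, 9.52% and 372% of *Rtn4r*, against 231%, 431%, 35.9% and 560.1% in TPM.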
